A study of Rattus norvegicus with 8 samples.

Results

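Ms4a1, Cd79b, Cr2 and Blk, genes of the B cell receptor complex and its coreceptors, were read from whole blood of rats on a normal or a high-fat diet. Every probe set whose platform annotation gave exactly 1 gene symbol, equal to one of these names, was taken. This gave 9 of the 31042 probe sets that were not controls: 1 for Ms4a1, 1 for Cd79b, 5 for Cr2 and 2 for Blk. All 4 genes were found by gene number among the protein-coding genes of GRCr8.

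The animals were male Wistar rats bought at an age of 7 weeks, given 1 week on normal chow (CE-2) and then kept for 8 weeks either on that chow or on a high-fat diet (Quick fat). Blood was drawn on day 56 after a fast overnight. The labels give 10 rats per diet, of which 4 normal and 4 high-fat animals have an array here, each called a biological replicate. No animal carries a gene alteration, and the rats that also received mulberry leaf powder are not analysed here.

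The B cell receptor is a membrane immunoglobulin held by a dimer of Cd79a and Cd79b, whose cytoplasmic tails pass the signal inward. Kinases of the Src family, among them Blk, phosphorylate those tails and bring in Syk. Cr2 (CD21) binds complement fragments on an antigen and, as a coreceptor, lowers the amount of antigen needed to trigger the receptor. Ms4a1 (CD20) is a membrane-spanning protein found on B cells from an early stage of their development until they become plasma cells. In blood these genes are read mainly from circulating B cells, so in a bulk sample fewer B cells and less RNA per B cell cannot be told apart.

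Among these genes, a promoter sequence was at hand for Cr2, whose product is the complement-binding part of the coreceptor. It is shown because none was at hand for Ms4a1, Cd79b or Blk, and not for any result of the arrays. The 250 bases before the Cr2 start site lie on the minus strand of GRCr8 at chr13:109244507-109244756 and were taken from RefSeq. Capitals mark matches on either strand to 4 motifs. These are the octamer ATGCAAAT bound by Oct factors of B cells, the E-box CAGGTG, the ETS-type site GAGGAA and the GC box GGGCGG.
Cr2: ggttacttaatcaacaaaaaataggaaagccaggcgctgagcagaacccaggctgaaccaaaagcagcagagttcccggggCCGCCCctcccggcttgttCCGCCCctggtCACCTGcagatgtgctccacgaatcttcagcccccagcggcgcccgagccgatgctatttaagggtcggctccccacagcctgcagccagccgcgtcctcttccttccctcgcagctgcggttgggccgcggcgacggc

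The window held the GC box at 2 places, -169 to -164 and -150 to -145 counted from the start site, and the E-box at -139 to -134. No match overlapped another. Of 33360 distinct windows of the same length, 30.5% held the GC box, 15.9% the E-box, 23.3% the ETS-type site GAGGAA and 1.55% the octamer. The full letters GAGGAA and those of the octamer were not in this window on either strand. Shorter forms of an ETS site were not searched for.

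The table used is the authors' own, and its levels read as log2 intensities. They run from 5.19 to 15.25 with a median of 6.60 in each array, and the number of arrays limits the precision. From array to array a probe set varies far less than log2 ratios of RNA amount would, with a median SD of 6.07e-06. No fold change is therefore given. Differences are in deposited units, or are divided by the probe set's own SD, pooled within the 2 diets, and are then in within-group SDs. The scaled level of an animal is its distance from the mean of the 8 arrays in SDs over the 8 arrays. Markers of whole blood were present, with a level of 15.09 for the globin Hbb, 11.59 for S100a9 of neutrophils, 12.82 for Pf4 of platelets and 10.87 for Ptprc of all white cells. No library was left out.

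All 4 genes had at least 1 probe set above the median level of the arrays. The mean level was 9.10 for Ms4a1, 8.20 for Cd79b, 7.80 for the brightest Cr2 probe set and 7.31 for the brightest Blk probe set. These exceeded the levels of 97.5%, 93.9%, 89.8% and 80.4% of all probe sets. The second Blk probe set stood at 6.73, and the further Cr2 probe sets at 6.91, 6.30, 6.28 and 6.23, the last 3 of which lay below the median. Different probes bind with different strength, so these levels give no order of transcript amounts, and within Cr2 they differed although the gene is the same.

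The spread over the animals also differed between probe sets. Ms4a1 had an SD over the 8 arrays of 7.32e-04, larger than that of 99.4% of all probe sets. Cd79b had 5.84e-04 (larger than 99.3%) and Cr2 1379446_at 1.85e-04 (97.9%). The other Cr2 probe sets had SDs between 4.17e-06 and 4.71e-05. Blk 1393379_a_at, the brighter of its pair, had the smallest spread, 9.57e-07, below that of most of the array (6.04% of probe sets had less), whereas the dimmer 1385962_x_at had 1.98e-05.

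The readings differed between animals in all 4 genes, and both diets held high and low animals. With a single array per animal, differences between animals and between arrays cannot be told apart. Ms4a1 read 9.10229, 9.10368, 9.10216 and 9.10401 in normal replicates 1 to 4 and 9.10285, 9.10381, 9.10240 and 9.10315 in high-fat replicates 1 to 4. Normal replicates 2 and 4 and high-fat replicate 2 were the 3 highest animals, and the groups overlapped throughout. Cd79b, the signalling chain, read 8.20457, 8.20556, 8.20437 and 8.20535 in the normal group and 8.20485, 8.20547, 8.20402 and 8.20433 in the high-fat group. The same 3 animals were highest, and high-fat replicate 3 was lowest.

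Cr2 1379446_at read 7.79640, 7.79667, 7.79614 and 7.79647 in the normal group and 7.79644, 7.79654, 7.79619 and 7.79621 in the high-fat group. Its highest animals were again normal replicates 2 and 4 and high-fat replicate 2, with normal replicate 3 lowest. Blk 1393379_a_at read 7.3091664, 7.3091686, 7.3091675 and 7.3091688 in the normal group and 7.3091668, 7.3091689, 7.3091676 and 7.3091671 in the high-fat group, with the same 3 animals on top. The kinase's second probe set, 1385962_x_at, whose suffix marks probes that can match other sequences, read 6.72984, 6.72987, 6.72985 and 6.72986 in the normal group and 6.72983, 6.72986, 6.72982 and 6.72982 in the high-fat group. There too these 3 animals stood highest.

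**Figure D1:**
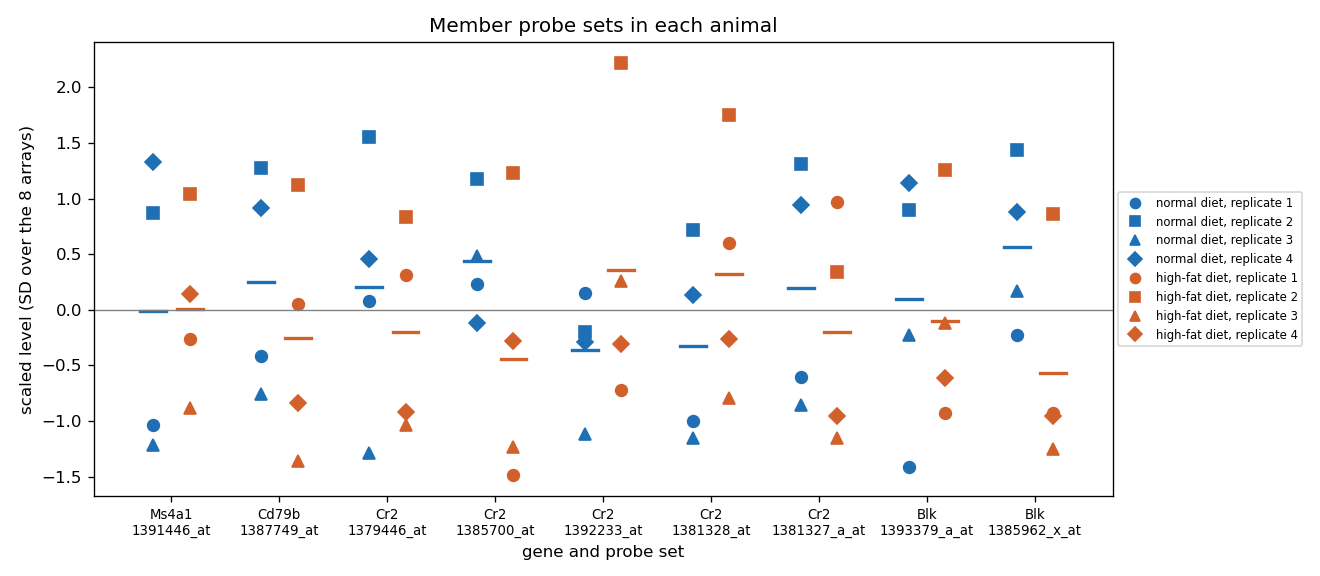
Scaled level (SDs over the 8 arrays) of each of the 9 probe sets in each animal. Colours give the diet, marker shapes the replicate number within a diet (not used for pairing), and bars the group means. High-fat replicate 2 lies above 0 in 9 of 9 probe sets and normal replicate 2 in 8 of 9, while high-fat replicates 3 and 4 lie above 0 in 1 of 9 each.

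Counted over all 9 probe sets, high-fat replicate 2 and normal replicate 2 were each among the 3 highest animals in 8, and normal replicate 4 in 6. High-fat replicates 3 and 4 were each among the 3 lowest in 7, and normal replicate 3 in 6. The median scaled level over the probe sets was 1.17 in normal replicate 2, 1.12 in high-fat replicate 2 and 0.881 in normal replicate 4. It was -1.04 in high-fat replicate 3 and -0.856 in normal replicate 3.

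No difference between the diets was found for any of these genes. By limma 0 of the 9 probe sets passed an adjusted p of 0.05, against 0% of all 31042 probe sets, and all 9 had an adjusted p of 1.0. Before adjustment, 0 of 9 had p under 0.05, against 2.25% of all probe sets, and the groups were apart in 0 of 9, against 1.44%. The exact permutation test over the 70 assignments of 4 against 4 arrays, two-sided, gave 0 of 9 under 0.05, where the smallest p it can give is 0.0286.

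Ms4a1 had the smallest difference in within-group SDs. Normal animals averaged 9.103 ± 9.50e-04 (SD, n = 4) and high-fat animals 9.103 ± 5.89e-04 (SD, n = 4), and the high-fat mean was higher by 1.65e-05 ± 5.26e-04 (SE). That is 0.0209 within-group SDs, with a 95% interval from the limma fit of -1.56 to 1.60 and an exact permutation p of 0.971. Differences of either sign within these bounds are not excluded by the 8 arrays. The direction was not stable, since the difference lay below 0 without normal replicate 3 (-0.374 within-group SDs) and reached 0.487 without normal replicate 4.

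Cd79b averaged 8.205 ± 5.79e-04 (SD, n = 4) in normal and 8.205 ± 6.33e-04 (SD, n = 4) in high-fat animals. Its difference of -2.96e-04 ± 4.04e-04 (SE) was -0.488 within-group SDs (interval -2.07 to 1.09, exact permutation p = 0.514). It was -1.08 without high-fat replicate 2 and -0.143 without high-fat replicate 3.

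The 2 Blk probe sets had the same sign but different sizes. The brighter 1393379_a_at stood at -0.189 within-group SDs (interval -2.57 to 2.19, exact permutation p = 0.8286) and the dimmer 1385962_x_at at -1.32 (interval -2.91 to 0.263, exact permutation p = 0.0857). The latter was the largest difference among the 9. Without high-fat replicate 2 it was -2.76 within-group SDs. The brighter probe set moved between -0.805 and 0.138 as single animals were left out, the ends being without normal replicate 1 and without normal replicate 4.

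The 5 Cr2 probe sets did not share a sign. The brightest, 1379446_at, stood at -0.383 within-group SDs, 1381327_a_at at -0.376 and 1385700_at at -0.928, against 0.727 for 1392233_at and 0.639 for 1381328_at. Exact permutation p ranged from 0.229 to 0.629 over the 5, and each interval held 0. Leaving out high-fat replicate 2 moved 1385700_at to -2.47, 1392233_at to 0.201 and 1381328_at to 0.205. Leaving out single animals put 1379446_at between -1.04, without normal replicate 3, and 0.05004, without normal replicate 2. The value of 1381327_a_at ran from -0.796, without high-fat replicate 1, to -0.0260, without normal replicate 2.

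**Figure D2:**
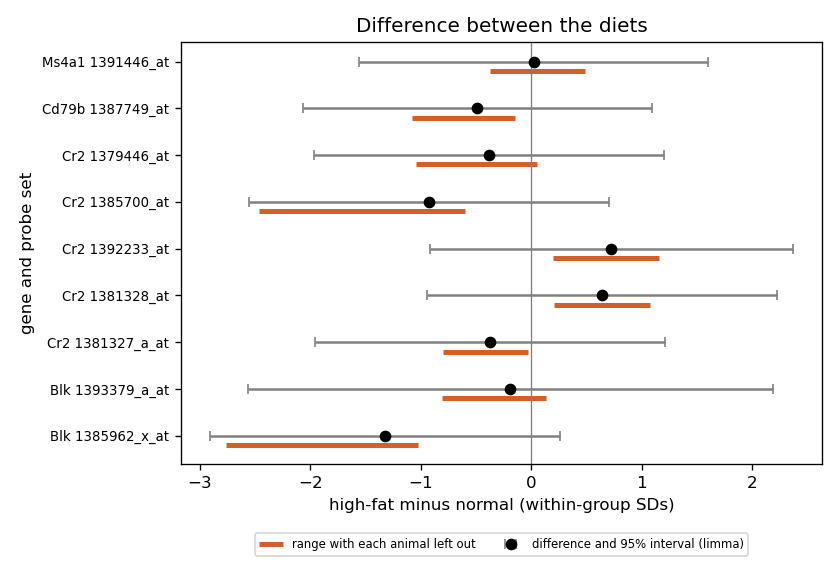
High-fat minus normal for each probe set in within-group SDs (x axis), with the 95% interval of the limma fit (grey) and the range obtained with each of the 8 animals left out in turn (orange). All 9 intervals hold 0, and 6 points lie below 0 and 3 above.

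Of the 9 probe sets, 6 were lower in the high-fat group, where 53.4% of all probe sets were lower. The median difference was -0.376 within-group SDs, against -0.0479 over all probe sets.

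On the deposited values the correlations among the 9 probe sets were above 0, and no pair passed adjustment. Pearson's r over the 8 arrays was above 0 in 36 of the 36 pairs, with a median of 0.631. Over all pairs of the 31041 probe sets that varied, r was above 0 in 50.3% and over 0.631 in 7.50%. Among the 9148 probe sets above the median level and the median SD these shares were 54.2% and 16.8%. By an exact permutation test over all 40320 pairings, 11 pairs had p under 0.05, and after Benjamini-Hochberg adjustment over the 36 pairs 0 did, by Pearson's r and by Spearman's rho alike. With the mean of each diet group subtracted first, r was above 0 in 36 of 36 pairs with a median of 0.722, so the sign did not rest on the diet means. With each array centred on its median instead, r was above 0 in 32 of 36 pairs. The 4 pairs below 0 joined Ms4a1 to both Blk probe sets and to 1385700_at and 1392233_at of Cr2. Without the 2 animals farthest from the median of the first probe set, r was above 0 in 31 of 36 pairs, from -0.796 to 0.911.

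Between the brightest probe sets of the 4 genes, the signalling chain Cd79b and the coreceptor Cr2 had the highest r, 0.92 (exact permutation p = 0.0026, adjusted 0.0889), with rho 0.93 (exact permutation p = 0.00223, adjusted 0.0652). Without the 2 outermost animals r was 0.85. Ms4a1 and Cd79b had r = 0.84 (exact permutation p = 0.0159, adjusted 0.0954), rho 0.64 (exact permutation p = 0.0962, adjusted 0.247) and r = 0.82 without 2 animals. Ms4a1 and Blk had r = 0.80 (exact permutation p = 0.0251, adjusted 0.100), rho 0.71 (exact permutation p = 0.0576, adjusted 0.173) and r = 0.83 without 2 animals. This pair depended on the scaling of the arrays. After each array was centred on its median r was -0.22 for Ms4a1 and Blk and 0.24 for Cd79b and Blk, against 0.83 for Ms4a1 and Cd79b and 0.92 for Cd79b and Cr2. The SD of the Blk probe set, 9.57e-07, is smaller than that of the array medians, 6.14e-05, so after centring it follows these medians. The other 3 of these 6 pairs had r of 0.71 (Ms4a1 and Cr2), 0.71 (Cd79b and Blk) and 0.51 (Cr2 and Blk), with exact permutation p of 0.0544, 0.0587 and 0.201.

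**Figure D3:**
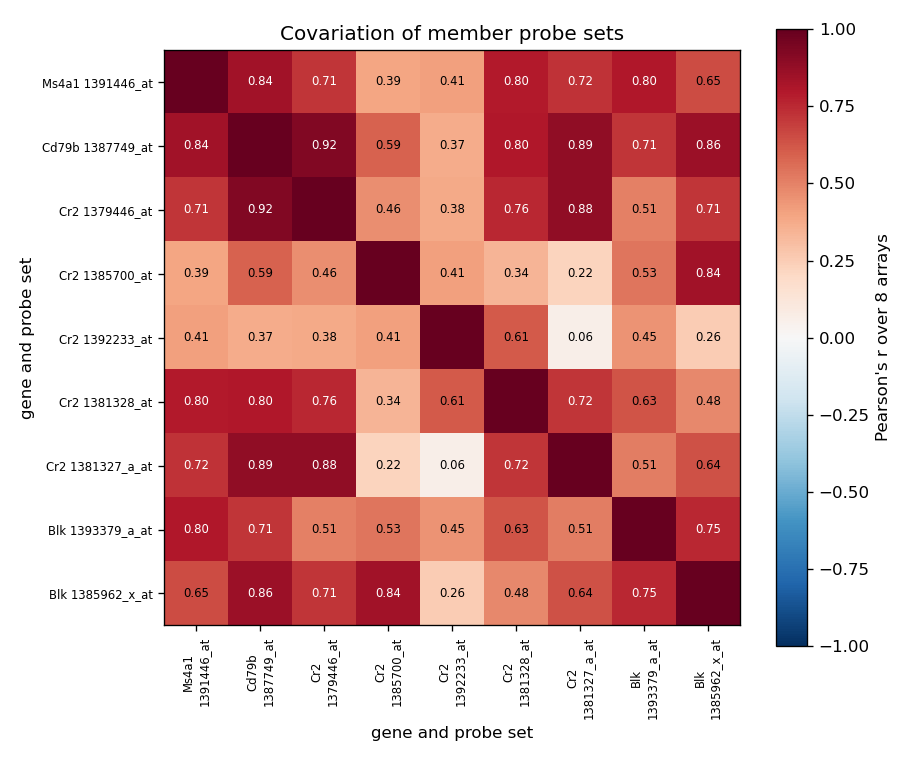
Pearson's r over the 8 arrays for each pair of the 9 probe sets (both axes), on a colour scale from -1 to 1. All values off the diagonal are above 0; 1392233_at of Cr2 has the palest row, down to 0.06 with 1381327_a_at of the same gene.

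Probe sets of the same gene followed each other unevenly. The median r was 0.464 over the 11 pairs within a gene and 0.649 over the 25 pairs between genes. The 2 Blk probe sets had r = 0.75 (exact permutation p = 0.0406, adjusted 0.133). Within Cr2, 1379446_at went with 1381327_a_at at r = 0.88 (exact permutation p = 0.00551, adjusted 0.0889) and with 1381328_at at 0.76 (exact permutation p = 0.0311, adjusted 0.112). The pair 1392233_at and 1381327_a_at, which the annotation ties to the same sequence record, had r = 0.06 (exact permutation p = 0.936). Cd79b had its higher r with 3 of the Cr2 probe sets, at 0.92, 0.89 and 0.80 for 1379446_at, 1381327_a_at and 1381328_at, and 0.59 for 1385700_at and 0.37 for 1392233_at. In 1392233_at a single animal, high-fat replicate 2, stood at a scaled level of 2.22 and the other animals between -1.12 and 0.257.

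The genes most like the members were then taken from 5986 genes with a probe set above the median level and the median SD, ordered by the mean of Pearson's r with the brightest probe sets of the 4 genes. Each gene entered with the one of these probe sets that had the highest mean r, which favours genes with several. The values are descriptions over 8 arrays that share the same deposited processing. Ebf1, a transcription factor that sets up the B cell lineage, came first with a mean r of 0.89 (r = 0.99 with Cd79b, 0.92 with Cr2, 0.89 with Ms4a1 and 0.75 with Blk). Its probe set 1392619_at had scaled levels of 1.39, 0.994 and 0.997 in normal replicates 2 and 4 and high-fat replicate 2 and of -0.952 and -1.15 in normal replicate 3 and high-fat replicate 3. The brighter Ebf1 probe set, 1382212_at, had a mean r of 0.79 (r = 0.93 with Cd79b, 0.88 with Cr2, 0.70 with Ms4a1 and 0.66 with Blk). With the brightest probe set of each gene alone, an order of 5632 genes chosen after seeing the data, Ighvl1 came first and Ebf1 held place 57. Ighvl1, an immunoglobulin heavy chain gene by its symbol, had a mean r of 0.88 and stood in place 2 of the first order, followed by Gga2, an adaptor of Golgi transport, with 0.87, Rbck1, a subunit of a ubiquitin ligase complex, with 0.87, and Nfatc3, a calcium-regulated transcription factor, with 0.86. For these 5 the lowest mean r with any animal left out lay between 0.833 and 0.866. Singled out after their values were seen, Vpreb3, Fcmr (the receptor for immunoglobulin M), the B cell scaffold Bank1 and the transcription factor Bcl11a held places 7, 8, 9 and 12. The order is a loose one, since 1914 of the 5986 genes had a mean r over 0.5.

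The list of B cell identity genes was chosen with earlier results of these data known. Of its 28 genes, 19 had a probe set with 1 symbol and 16 were eligible for the order of likeness. Of these 16, 8 stood in its first 100 places, namely Ebf1, Vpreb3, Fcmr, Bank1, Bcl11a, Fcrla, Ciita and Pou2af1, where those places hold 100 of all 5986 genes. At their brightest probe sets Fcrla and Ciita had a mean r of 0.54 and 0.41. Other identity genes stood far down that order, with Irf8, Pou2f2 and Cxcr5 in places 2221, 2699 and 5015. At brightest probe sets 17 of the 19 measured genes had a mean r above 0, but Pou2f2 had -0.182 and Cxcr5 -0.303. In the order by brightest probe sets alone 7 of 15 stood in the first 100 places, Fcrla and Ciita no longer among them and Cd83 added, with 0 of 24 for signalling and 0 of 15 for T cells. In the first order, of 25 measured genes of B cell receptor signalling 0 stood there, and of the T cell list 0 of 15, whose first gene was Cd8a in place 236. Nfatc1, the calcium-regulated factor below the receptor, was the first signalling gene, in place 126, and the adaptor Blnk followed in place 164. By median over the list the B cell identity, B cell receptor signalling and T cell lists did not separate. With each gene taken at its brightest probe set, the median of the mean r was 0.522 for B cell identity, 0.507 for B cell receptor signalling and 0.557 for T cells, against 0.0393 over all 14213 genes. Genes of these lists also varied more, with a median SD percentile of 93.6, 92.0 and 91.6 against 54.4 over all genes. Over the 5986 genes of the first order, each at its eligible probe set with the highest mean r, the median was 0.316. At brightest probe sets the median was -0.0661 for natural killer cells, -0.00550 for monocytes, 0.0359 for neutrophils, -0.119 for red cells and 0.118 for platelets.

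**Figure D4:**
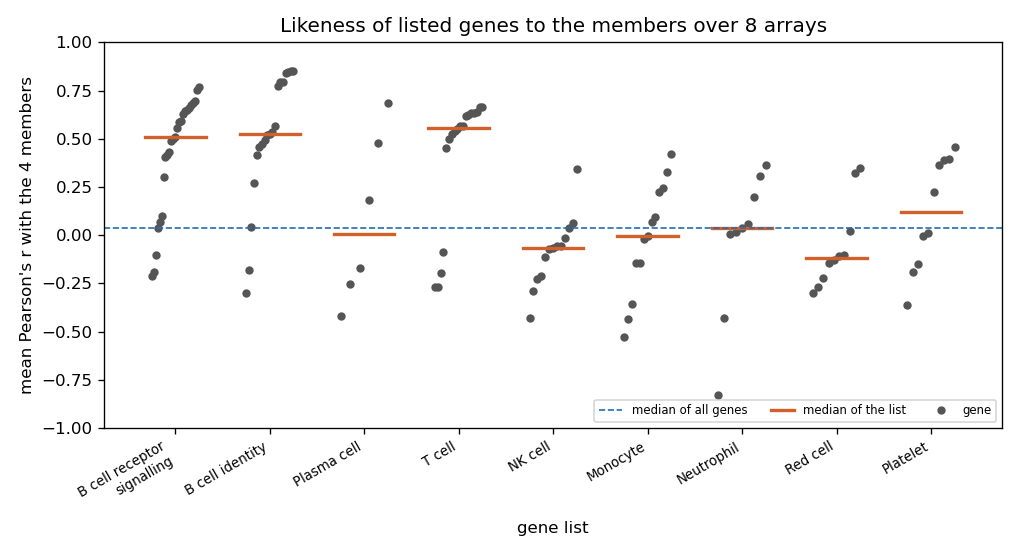
Mean Pearson's r over the 8 arrays with the brightest probe sets of Ms4a1, Cd79b, Cr2 and Blk (y axis) for each measured gene of 9 lists (x axis), with list medians (orange) and the median of all genes (dashed). B cell and T cell lists have medians from 0.507 to 0.557, and the highest single genes belong to the B cell identity list, at 0.85.

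The mean levels of other cell types were read beside the members. The mean scaled level of the 4 brightest member probe sets was -0.695, 1.15, -0.870 and 0.962 in normal replicates 1 to 4 and -0.205, 1.06, -0.847 and -0.556 in high-fat replicates 1 to 4. The T cell list (18 of 20 genes measured) read 0.518, 0.559, -1.09 and 0.839 in the normal group and between -0.452 and 0.280 in the high-fat group. Normal replicate 3 was thus low in both, while normal replicate 1 was low in the mean of the 4 members and not in the T cell genes. Its low mean was not shared by all members, since Cr2 1379446_at stood at 0.0814 there. The B cell identity and signalling lists stood at -0.320 and -0.0557 in that animal. High-fat replicate 4, at -0.556 for the members, stood at 1.95 on the natural killer list (13 of 15 measured) and 1.87 on the monocyte list (13 of 14), while the remaining high-fat animals ranged from -0.405 to -0.0263 and from -0.551 to 0.0603. The part of cell composition in the members' values was not tested.

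Among the genes around the receptor, none passed limma over all probe sets in either direction. Of 30 listed signalling genes 25 were measured, Cd79a not among them. Of these, 11 were lower in the high-fat group and 14 higher (44.0% lower, against 52.5% of all 14217 genes), with a median of 0.00891 within-group SDs against -0.0374. Leaving out normal replicate 2 gave 6 lower genes and high-fat replicate 3 gave 7, whereas normal replicate 3 gave 19 and high-fat replicate 4 gave 20, so the count had no settled direction. Centring each array on its median gave 22. The brightest were the phosphatase Ptprc (CD45) at 0.00891 within-group SDs, the kinase Prkcb at 0.131 and the adaptor Grb2 at 0.118. Those with the smallest limma p were the exchange factors Rasgrp3 at -1.37 and Vav1 at 0.940 and the kinase subunit Pik3r1 at 0.678, each with an adjusted p of 1.0.

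Of the 19 measured B cell identity genes, 17 were lower in the high-fat group and 2 higher, Irf8 and Ccr6 (89.5% lower, against 52.5% of all 14217 genes), with a median of -0.396 within-group SDs against -0.0374. None of them passed limma (adjusted p 1.0), 0 had an unadjusted p under 0.05, against 2% of all genes, and 0 had groups apart, against 1.32%. The brightest were Fcmr at -0.485 within-group SDs, the homing receptor Cxcr5 at -0.396 and the coactivator Pou2af1 at -0.262. The smallest limma p belonged to Ralgps2 at -0.802, Ciita, the activator of class II genes, at -0.728 and Fcrla at -0.665. The count of 17 went to 11 when normal replicate 2 was left out and to 10 when high-fat replicate 3 was, the highest normal and the lowest high-fat animal on this list, at scaled levels of 0.913 and -1.16. Quantile normalization on top also gave 11. Of the T cell list 15 of 18 genes were lower in the high-fat group, and of the platelet list 8 of 10. It was 1 of 13 for monocytes, 0 of 13 for natural killer cells and 1 of 10 for red cells. High-fat replicate 4 stood at -1.63 on the platelet list, where the other 7 animals ranged from -0.440 to 0.756. The part of these cells in the identity count was not tested, and the lists were chosen with earlier results of these data known.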

How the data were processed

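The table deposited by the authors holds log2 levels of Affymetrix 3' expression probe sets in 8 arrays. Per the labels' protocols, RNA came from blood in TRIzol LS, was purified on columns, and 200 ng was amplified and biotin-labelled. Background correction, normalization and probe summary are not given in the sources used here. After removal of 57 control probe sets, 31042 were tested by limma (version 3.58.1, R 4.3.3; lmFit and eBayes without covariates, Benjamini-Hochberg over all probe sets, threshold 0.05) and checked on simulated data. In the counts and medians of a list each gene was represented by its brightest probe set, and in the order of likeness by its eligible probe set with the highest mean r. Correlations used exact permutation over pairings (numpy 2.4.6).

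All members were named. Of the signalling and identity lists, the 3 brightest genes and the 3 with the smallest p were named, plus the 5 genes most like the members. Members and lists were chosen with earlier results of these data known. Lists of plasma, T and natural killer cells, monocytes, neutrophils, red cells and platelets were read alongside. Same-numbered animals of the 2 diets had r of -0.121, 0.198, 0.355 and 0.140 over all probe sets, for numbers 1 to 4. Those numbered 2 and those numbered 3 were each other's best match. The labels tie same-numbered animals to nothing shared, so they were not paired in the main fit. Alternatives were quantile normalization, centring, array weights, eBayes with a trend and robust moderation, leaving out dim probe sets or single animals, blocking on the replicate number, and means over probe sets of a gene. Linear values with a floor were not needed.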

Additional observations from a re-analysis of the deposited data

Results flagged for a closer look

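Among 18 groups examined (9 probe sets in 2 diets), 1 held an animal set apart from the other 3. Blk 1385962_x_at in the high-fat group read 0.860 in replicate 2 and between -1.25 and -0.929 in the other animals as scaled levels, and the gap took up 0.849 of the group's range. Chance marks about 1 in 20 groups in this way.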

How the results depend on the processing

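No member probe set passed the threshold under any alternative run. Over all probe sets limma made 0 calls, except 32 after quantile normalization on top, none of them a member. Adding the replicate number as a block gave 0 calls and 0 members called, as without it, and left the list counts at 11 and 17. Over all probe sets 5 of 8 animals correlated best with their own number, where each had 4 animals of the other diet to match. The mean scaled level of the 4 brightest member probe sets was 1.15 and 1.06 in replicate 2 of the normal and high-fat diets. It was -0.870 and -0.847 in replicate 3, -0.695 and -0.205 in replicate 1, and 0.962 and -0.556 in replicate 4. Whether same-numbered animals shared a step of handling was not tested. Centring each array shifts every difference by -6.60e-05, which put Ms4a1 at -4.95e-05, Cr2 1392233_at at -6.29e-05 and Cr2 1381328_at at -4.93e-05 and raised the signalling genes lower in high-fat from 11 to 22. Array weights put Ms4a1 at -1.57e-05, and quantile normalization put Cr2 1379446_at at 4.88e-05 and the identity genes lower in high-fat at 11. Leaving out single animals gave -2.76e-04 to 3.42e-04 for Ms4a1, -1.67e-04 to 8.55e-06 for Cr2 1379446_at, -6.77e-07 to 1.38e-07 for Blk 1393379_a_at, 6 to 20 lower signalling genes and 10 to 18 lower identity genes.

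Pairs of member probe sets past adjustment numbered 15 after centring, where 6 of the 9 have a smaller SD than the subtracted array medians (6.14e-05) and so follow these. Leaving out single animals gave 0 to 1 such pair, and subtracting the diet means gave 5, both chosen after seeing the data. The filter on dim probe sets removed 3 Cr2 probe sets. The count of lower genes in both lists stayed within 1.5 times when probe sets of a gene were averaged, at 12 and 16.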

Other observations

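Plasma cell genes, which mark the antibody-secreting stage at which Ms4a1 is lost, did not follow the members as a list. Of 10 listed genes 6 were measured, 2 of them lower and 4 higher on the high-fat diet, and the median was 0.280 within-group SDs, where 52.5% of all 14217 genes were lower with a median of -0.0374. By limma over all probe sets 0 passed the threshold, and 1 of the 6 had an unadjusted p under 0.05, as did 284 of all genes. Their median of the mean r with the members was 0.00528. Jchain, the joining chain of secreted antibodies and the gene of that list most like the members, stood at place 498 with a mean r of 0.684. Mzb1 had a mean r of 0.476 and Xbp1 0.182, against -0.172 for Sdc1, -0.254 for Prdm1 and -0.417 for Tnfrsf17. The level of Tnfrsf17, 6.41, lay below the median of the arrays. The list read -1.24 in normal replicate 1 and between -0.209 and 0.394 in the other 7 animals as scaled levels.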
